A study of Caenorhabditis elegans with 2 samples.

Results

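Divergent promoter peaks are EFL-1::GFP binding sites that lie in front of a protein-coding gene on each strand, so that a single summit serves genes transcribed away from each other. They were chosen by position alone: the summit of a peak had to lie from 1000 bp upstream to 200 bp downstream of an annotated 5′ end of at least 1 plus-strand and at least 1 minus-strand protein-coding gene. Of the 2498 peaks in the list that the authors derived from both replicates in build ce11, 668 met this rule. A further 1225 peaks had a gene on 1 strand only and are called one-strand promoter peaks. The remaining 587 of the 2480 peaks on nuclear chromosomes lay in no such window.

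The peaks came from chromatin immunoprecipitation and sequencing (ChIP-seq) of EFL-1 in whole worms of the nematode Caenorhabditis elegans, collected as young adults with the sexes mixed, with 1 group of 2 biological replicates. All worms were of strain YL445, which carries unc119(ed3)III and the transgene vrIs81, in which the pie-1 promoter drives EFL-1 fused to GFP and FLAG, followed by the efl-1 3′ UTR and unc-119 (+). The pie-1 promoter is active in the germline, no deletion of the endogenous efl-1 gene is listed, and the antibody target is given as efl-1 in 1 place and as eGFP-efl-1 in another. Worms without the transgene, other stages and other tissues were not analysed here, so every value below describes 1 condition.

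EFL-1 is an E2F transcription factor. E2F proteins bind DNA together with a DP partner, act as activators or as repressors with retinoblastoma family proteins, and are known for their control of genes for DNA replication and cell division. In the worm, EFL-1, DPL-1 and the retinoblastoma protein LIN-35 form part of the DREAM complex, whose LIN-54 subunit contacts a second short motif. In a compact genome such as that of the worm, many genes stand head to head and share the DNA between their 5′ ends, and a factor bound there cannot be assigned to either gene from its position alone.

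The E2F core was searched as TTNNCGC, where each N is C or G, on both strands and within 50 bp of the summit. Of the 15 divergent peaks with the highest signal, 13 held such a core. The 11 sequences below come from those peaks and are printed because they show the core in its surroundings at the strongest divergent sites. Each shows 30 bases of WBcel235 (ce11) from RefSeq, 5′ to 3′ on the strand on which the core reads, with the 7 bases of the core in capitals. The names give the minus-strand gene and then the plus-strand gene.
tbb-1 and rib-2, chrIII:10742661-10742690, plus strand: gaatgggttttTTGGCGCcacgcgtcgcaa
Y53F4B.9 and Y53F4B.11, chrII:15010602-15010631, plus strand: aaaatcaacatTTCGCGCtgtctcactaga
W03C9.5 and mex-1, chrII:11968441-11968470, minus strand: aaatccaaaatTTCCCGCtccacgggctac
pycr-4 and rod-1, chrIV:7477918-7477947, minus strand: atatagagaaaTTCGCGCctaaaatttgcg
K01G5.10 and tasp-1, chrIII:10759264-10759293, minus strand: ccattttcaagTTGGCGCgctgtgtcacac
dvc-1 and ima-1, chrV:11239433-11239462, minus strand: agtggaattatTTCCCGCgtgccgccagtt
cogc-2 and klp-18, chrIV:7039933-7039962, minus strand: aaaatcaaaatTTCGCGCctccgcggcgga
ugt-12 and T19H12.2, chrV:4890161-4890190, minus strand: aaattcactttTTCGCGCgttttgcgagcc
ran-1 and dkc-1, chrIII:10748130-10748159, minus strand: ttttgttcattTTGGCGCgcaaatctggct
T01C3.3 and fil-1, chrV:14992889-14992918, plus strand: aaatccaagttTTGCCGCcagccgcaatgg
npp-3 and top-2, chrII:11874867-11874896, plus strand: gctgtgtatttTTCGCGCgttcgctgcgag

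The summits lay between the gene starts, usually closer to one of them than to the other. The summit was between the 5′ ends of the nearest gene on each strand in 623 of the 668 peaks, at or past the plus-strand 5′ end in 22 and at or past the minus-strand 5′ end in 23. The nearer 5′ end was that of the plus-strand gene in 334 peaks and that of the minus-strand gene in 334, so neither strand was preferred. The median distance from the summit was 151 bp to the nearer 5′ end and 375.5 bp to the farther, and the median gap between the 5′ ends was 559 bp, with quartiles of 336 and 782 bp. These distances were bounded by the rule that chose the peaks.

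Among the 623 summits inside the gap, 185 lay from 40 to 50% of the way from the nearer 5′ end to the farther one, and 69 lay within the first 10%. The count was thus higher near the middle than beside a gene start, but it cannot show a preference for the middle. Where the gap exceeded 1000 bp, as at 82 divergent peaks, the rule itself excluded the positions closest to a 5′ end. Summits at or past a 5′ end were also left out of this count. The underlying DNA was annotated as intergenic at 569 summits (85.2%), as intron at 52, as untranslated exon at 39 and as coding exon at 8. In 632 peaks the window held 1 gene on each strand, and in 36 it held 3 or more genes. A noncoding or pseudogene 5′ end also fell in the window at 102 peaks, among them 65 with an ncRNA, 21 with a snoRNA and 16 with a piRNA.

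**Figure D1:**
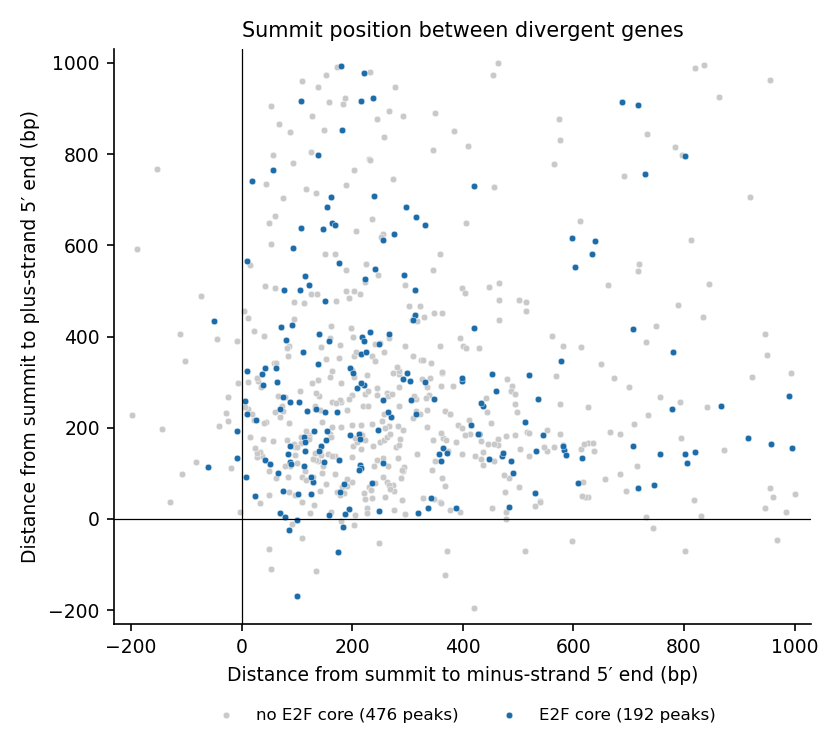
Distance in bp from each of the 668 summits to the nearest minus-strand 5′ end (x axis) and plus-strand 5′ end (y axis), positive where the summit is upstream, with peaks that hold an E2F core in blue and the others in grey. The points spread evenly about the diagonal, with 623 of them upstream of both genes.

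The signal value of a region, which is the authors' own and has no stated scale, ranged from 35.0 to 1564 over the 668 divergent peaks, with a median of 92.4. Replicate 1 gave a median of 27.8 over the 657 peaks that overlapped a region of its relaxed list, and replicate 2 a median of 66.1 over all 668. The value was higher in replicate 2 at 644 of the 657 peaks. The signal of the pooled list was close to the sum of both replicate values, with a median ratio of 1.00 (quartiles 0.982 and 1.02), and replicate 2 made up a median of 72.2% of that sum. The pooled order therefore followed replicate 2 more than replicate 1, and replicates are compared below by rank.

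The replicates ordered the divergent peaks alike, with a Spearman's rho of 0.855 across the 657 peaks, which is a description across peaks of the same libraries. For one-strand promoter peaks it was 0.792 across 1192 peaks. The 11 divergent peaks with no overlapping region in replicate 1 all had low pooled signals, from 35.4 to 76.5. Of the 668, 550 overlapped the 2498 highest regions of each replicate, called top regions here, 75 overlapped those of replicate 2 only, 35 those of replicate 1 only and 8 neither. None of the 118 peaks missing from at least 1 set of top regions had a pooled signal above 78.8.

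**Figure D2:**
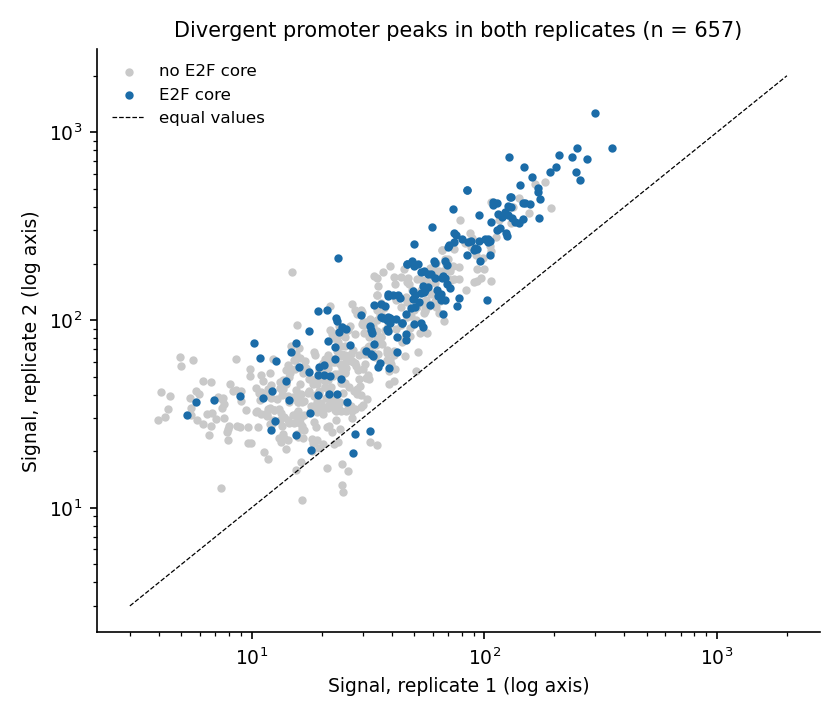
Signal of the 657 divergent promoter peaks present in both relaxed lists, replicate 1 against replicate 2 on log axes, with E2F core peaks in blue, the others in grey and a dashed line at equal values. Most points, 644 of 657, lie above the line, and the spread is widest among peaks of low signal.

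The strongest divergent peak lay between tbb-1, which encodes a beta-tubulin, and rib-2, a gene of heparan sulfate synthesis, with a signal of 300.05 in replicate 1 and 1263 in replicate 2. It ranked 9 in replicate 1 and 1 in replicate 2. Its summit was nearer to rib-2 (123 bp upstream) than to tbb-1 (255 bp upstream).

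The next leading peaks lay at genes of the germline, the embryo and the kinetochore, among others. The peak between C55B7.11 and glh-2, a germline RNA helicase related to Vasa, had signals of 251 and 826 in replicates 1 and 2, and its summit lay 3 bp inside glh-2. The peak between W03C9.5 and mex-1, a zinc-finger protein that patterns the early embryo, had signals of 276 and 719 and lay 177 bp upstream of mex-1 but 916 bp upstream of W03C9.5. Kinetochore genes stood beside metabolic enzymes at another pair of peaks. At rod-1, whose product acts in the spindle checkpoint, and pycr-4, a pyrroline-5-carboxylate reductase gene, the signals were 239 and 736. At hcp-4, the worm CENP-C, and pgk-1, a phosphoglycerate kinase, they were 249 and 616, with a summit 688 bp from hcp-4 and 915 bp from pgk-1. All 4 peaks ranked high in both replicates, from 10 for glh-2 to 33 for hcp-4, both in replicate 2.

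Nuclear transport and chromosome genes followed. The summit between dvc-1, a protease of DNA-protein crosslink repair, and ima-1, an importin alpha, had 127 in replicate 1 and 736 in replicate 2. This was the least even of the leading peaks, with ranks of 96 and 17. The summit between cogc-2, of the Golgi-associated COG complex, and klp-18, a kinesin of the acentrosomal meiotic spindle, had 203 and 652. That between the small GTPase gene ran-1 and dkc-1, the worm dyskerin, had 149 and 657, and that between npp-3, a nucleoporin, and top-2, a type II topoisomerase, had 160 and 580.

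Only 2 of the 15 strongest divergent peaks held no E2F core, and both served a gene for a meiotic cohesin subunit. One lay between rec-8 and mex-5, a regulator of embryonic polarity, with signals of 183 and 544 in replicates 1 and 2. The other lay between coh-4 and pid-5, with 166 and 528. The remaining leading peaks were those of Y53F4B.9 and Y53F4B.11 (354 and 822), K01G5.10 and tasp-1 (209 and 755), ugt-12 and T19H12.2 (258 and 556), and T01C3.3 and fil-1 (192 and 611).

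An E2F core was present at 192 of the 668 divergent peaks (28.7%, 95% Wilson interval 25.4 to 32.3). Windows of the same 101 bp placed 500 bp to either side held one in 58 of 1336 cases (4.34%, 3.37 to 5.57). Where a core was present, its centre lay a median of 19 bp from the summit, within 25 bp in 125 peaks and within 10 bp in 48. A single core was found in 156 peaks and 2 or more in 36. The longer form TTTNNCGC was present at 109 divergent peaks (16.3%) and in 1.87% of the flanking windows.

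Cores were split about evenly between the strands. The one nearest the summit read on the plus strand in 98 peaks and on the minus strand in 94, and it read on the strand of the nearer gene in 92 and of the farther gene in 100. By spelling, 72 peaks held TTCGCGC, 60 held TTGGCGC, 53 held TTCCCGC and 29 held TTGCCGC. The sequences printed above include all 4 spellings.

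Signal and core went together. Of the 37 divergent peaks with a signal above 500, 30 held a core. The second motif, TTNGAA with C or T at N, resembles the site of LIN-54 and was present at 286 divergent peaks (42.8%, 39.1 to 46.6) and in 27.6% of the flanking windows. The median signal was 194 for the 102 peaks with both motifs, 186 for the 90 with a core only, 87.8 for the 184 with TTNGAA only and 70.3 for the 292 with neither. The median thus differed little with the second motif once a core was present.

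The second motif was most frequent a little to either side of the summit. Right and left here are genome coordinates and not the direction of a gene. It occurred 13.5 times per 100 divergent peaks from 20 to 40 bp and 12.7 times from 40 to 60 bp to the right, and 11.2 times from 40 to 60 bp to the left. At the summit itself it was near the level of the flanks, with 8.38 and 7.49 in the steps to its left and right, beside 7.78 to 10.3 in the steps from 100 to 240 bp on either side. Around the core itself it was more frequent on the 5′ side of the core. Reading along the strand of each of the 233 cores at divergent peaks, 63 (27.04%) had a TTNGAA, on either strand, with at most 14 bases between the motifs on the 5′ side, and 32 (13.7%) had one on the 3′ side. At one-strand peaks the same was so for 113 (23.8%) and 61 (12.8%) of 475 cores. The most frequent single spacing at divergent peaks was 9 bases on the 5′ side, with 15 cases, followed by 0 bases on that side with 9. This spacing was examined after the values had been seen and was not tested.

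**Figure D3:**
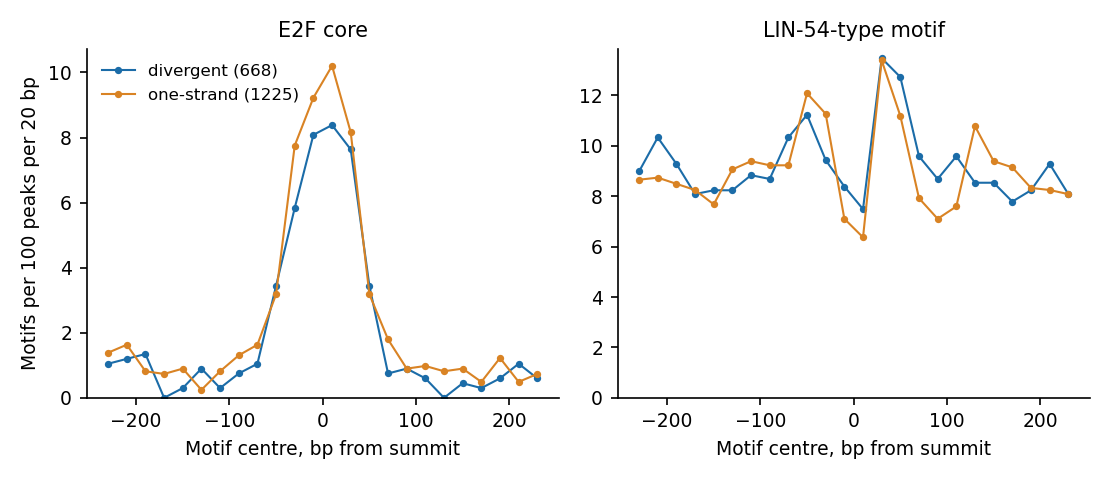
Number of motifs per 100 peaks in steps of 20 bp around the summit, on both strands, for divergent (blue) and one-strand (orange) promoter peaks, with the E2F core on the left and TTNGAA, the LIN-54-type motif, on the right. The core peaks at the summit in both classes, at 8.38 per 100 divergent and 10.2 per 100 one-strand peaks. The other motif is raised on both sides, where right and left are genome coordinates. Per 100 divergent peaks it reaches 13.5 and 12.7 from 20 to 60 bp to the right and 11.2 from 40 to 60 bp to the left. Per 100 one-strand peaks it reaches 13.4 and 11.2 from 20 to 60 bp to the right. To the left it reaches 11.3 from 20 to 40 bp, beside 9.43 per 100 divergent peaks, and 12.1 from 40 to 60 bp.

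Divergent and one-strand promoter peaks were compared on 4 measures that the positional rule did not use, with two-sided Fisher's exact tests adjusted over the 4 by the Benjamini-Hochberg method. The tests treat each peak as a unit, so their p-values cover the sampling of peaks in 1 pooled list and not the spread between replicates, and neighbouring peaks are not fully independent.

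Divergent peaks were stronger by a small margin and were found more often in both replicates. Of the 668, 359 (53.7%) had a signal above 81.9, the median of all promoter peaks, against 587 of 1225 one-strand peaks (47.9%), a difference of 5.82 percentage points (95% Newcombe interval 1.11 to 10.5, adjusted p = 0.0324, Fisher's exact test). This difference did not pass with a 500 bp upstream window (4.13 points, adjusted p = 0.201, Fisher's exact test), within the upper 50% of peaks (6.44 points) or among peaks in both sets of top regions (5.33 points). In each of these settings the median was taken anew over its own promoter peaks. The share in the top regions of both replicates was 82.3% against 73.6%, a difference of 8.78 points (4.89 to 12.5, adjusted p = 5.95e-05, Fisher's exact test). Within the upper 50% of the optimal peaks it was 1.58 points, with shares of 99.3% and 97.7%, and did not pass. Promoter peaks were also split at their median signal after the data were seen, with p-values adjusted within that split. The difference was 1.53 points above the median (100% against 98.5%, adjusted p = 0.0158, Fisher's exact test). At or below it the difference was 11.2 points (61.8% against 50.6%, adjusted p = 0.00272, Fisher's exact test). Over all promoter peaks the difference was larger in replicate 1, where 87.6% of divergent and 79.0% of one-strand peaks were among the top regions. In replicate 2 the shares were 93.6% and 92.7%, with a difference of 0.828 points (-1.67 to 3.10).

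Both differences were smaller among summits close to a gene. With only summits within 250 bp of a 5′ end, a limit chosen after the data were seen, the difference was 0.840 points for the signal (-4.92 to 6.58, adjusted p = 0.813, Fisher's exact test) and 4.96 points for the top regions (0.314 to 9.51, adjusted p = 0.118, Fisher's exact test). The divergent shares, 54.04% for the signal and 82.5% for the top regions, were close to those over all divergent peaks, while the one-strand shares were 53.2% and 77.5%, above those over all one-strand peaks. The part of the distance to a gene start in the differences was not tested further.

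The E2F core was found at 28.7% of divergent and 32.7% of one-strand peaks, a difference of -3.99 points (-8.24 to 0.387). This difference did not pass (adjusted p = 0.104, Fisher's exact test). It passed with the top regions of replicate 1 in place of the pooled peaks (-5.43 points, adjusted p = 0.0203, Fisher's exact test). It also passed with a 500 bp window (-6.01 points) and with motifs within 100 bp (-5.35 points). Among weaker peaks the classes differed more. At or below the median signal, 38 of 309 divergent peaks (12.3%) and 148 of 638 one-strand peaks (23.2%) held a core, a difference of -10.9 points (adjusted p = 0.000112, Fisher's exact test). Above the median the shares were 42.9% and 43.1%, and the difference of the differences was not tested. In the second-lowest signal quartile, a split made after the data were seen, they were 13.7% and 29.5%. Seen from the other side, 80.2% of the 192 divergent peaks with a core lay above the median signal, against 63.1% of the 401 one-strand peaks with a core (adjusted p = 3.99e-05, Fisher's exact test), while without a core the shares were 43.1% and 40.5% (adjusted p = 0.381, Fisher's exact test). The p-values by signal and by core were each adjusted within that split and not over the 4 measures. Both splits rest on the same counts of peaks.

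TTNGAA was present at 42.8% of divergent and 40.2% of one-strand peaks. The difference was 2.57 points (-2.05 to 7.22) and did not pass (adjusted p = 0.283, Fisher's exact test). Searched within 100 bp of the summit it was 6.11 points and passed (adjusted p = 0.0193, Fisher's exact test). It was below 0 with the top regions of replicate 1 (-1.19) and with the upper 50% of peaks by signal (-1.71). It was also below 0 with the peaks in both sets of top regions (-0.232), so no direction is given for it.

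**Figure D4:**
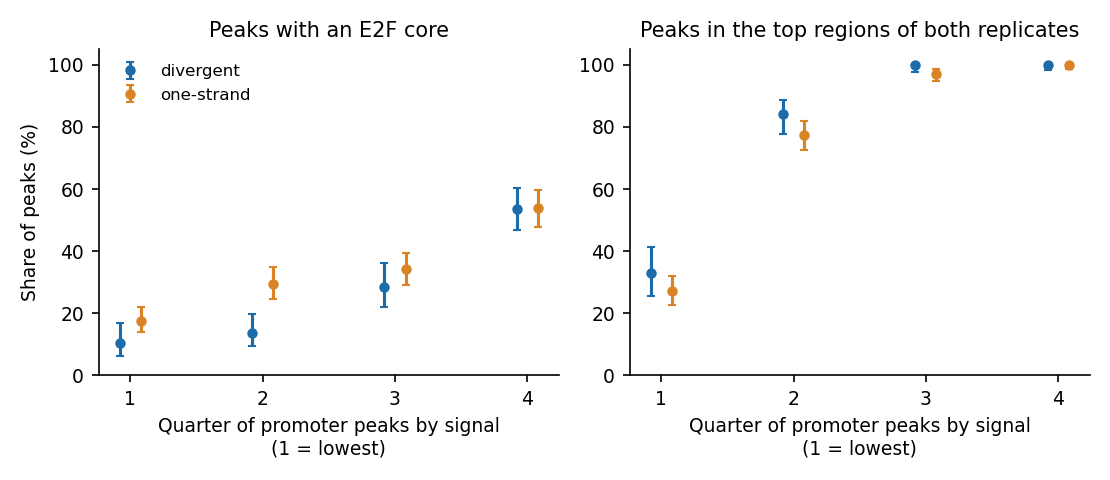
Share of divergent (blue) and one-strand (orange) promoter peaks with an E2F core (left) and in the top regions of both replicates (right), by quartile of all promoter peaks ranked by signal, with 95% Wilson intervals. The core shares are 10.4% and 17.6% in the lowest quartile, 13.7% and 29.5% in the second and 28.6% and 34.2% in the third. They are 53.7% for both classes in the highest, where all peaks of both classes are in the top regions of both replicates.

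Not every head-to-head gene pair was bound. Among 1910 pairs of neighbouring protein-coding genes with 0 to 1000 bp between their divergent 5′ ends, 588 (30.8%, 28.8 to 32.9) held a divergent peak, 1293 had neither gene bound and 29 were reached by other peaks only. The share was 21.4% for gaps up to 200 bp and 34.0%, 35.2% and 29.4% for gaps of 201 to 400, 401 to 600 and 601 to 1000 bp. The middle of the gap held an E2F core, within 50 bp, in 9.69% of the pairs with a divergent peak and in 2.47% of the pairs with neither gene bound.

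The bound pairs were unevenly spread over the genome. The share of head-to-head pairs with a divergent peak was 45.1% on chromosome III and 40.97% on chromosome I, 29.5% on II, 27.03% on IV and 21.4% on V, and 4 of 86 pairs (4.65%, 1.82 to 11.4) on X. Chromosome III also had the highest median signal among its divergent peaks, 116, and chromosome X, with 7 divergent peaks, the lowest, 48.3. Of all promoter peaks, 10.8% on X were divergent, against 31.6 to 40.05% on the autosomes.

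Some gene pairs had a second divergent peak. The 668 peaks fell on 640 distinct nearest gene pairs, and 28 of these pairs were the nearest for 2 peaks, which need not both lie in the gap. In these the median signal was 145 for the higher peak and 59.4 for the lower, and the summits lay a median of 433 bp apart. In 11 pairs they lay from 199 to 204 bp apart. The pair with the highest signal, W03C9.5 and mex-1, had a weaker summit with a signal of 85.4 at 733 bp from the stronger, in which no core was found.

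The 668 peaks reached 1315 of the 19973 protein-coding genes on nuclear chromosomes (6.58%), and promoter peaks of any kind reached 2503 (12.5%). A partner within 1000 bp in head-to-head arrangement was present for 3749 genes (18.8%). Lists of genes by role are given below as counts beside these shares, with no test. A gene with a partner can be reached through that partner, and lists differ in how many of their genes have one. In 23 of 47 replication genes, 45 of 86 mitosis genes and 47 of 80 cytoplasmic ribosomal protein genes a partner was present.

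Genes of DNA replication and mitosis were reached by strong divergent peaks that often held a core. Of 47 measured replication genes, 24 were reached by a divergent peak and 39 by any promoter peak, and 14 of the 24 peaks held a core. Their median signal was 249. The strongest were top-2, rpa-1, a subunit of the single-strand DNA binding protein RPA (129 in replicate 1 and 450 in replicate 2), tim-1, the worm Timeless (131 and 398), and mcm-3, of the replicative helicase (110 and 409). Of 86 mitosis and cell cycle genes, 49 were reached by a divergent peak and 73 by any, with a core at 31 of the 49 peaks, TTNGAA at 37 and a median signal of 234. The strongest were rod-1, hcp-4, klp-18 and kbp-4, a kinetochore gene. Of 55 DNA repair genes, 14 were reached, by 13 peaks of which 7 held a core.

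Germline and embryo genes were also reached, with a core at most peaks of the oocyte and embryo list (61.5%, Wilson interval 35.5 to 82.3). The core shares were 12.5% (3.50 to 36.0) in the meiosis list and 21.4% (7.57 to 47.6) in the germ granule list. A core was present at 28.7% of all divergent peaks. The intervals of the meiosis and germ granule lists include that share, so these lists cannot be set apart from it. Of 48 oocyte and early embryo genes, 13 were reached by a divergent peak, with a core at 8 of the 13 peaks and a median signal of 271. They included mex-1, mex-5, gpr-2, a regulator of spindle forces (143 and 521), and the polarity gene par-2 (131 and 455). Of 39 meiotic chromosome genes, 16 were reached, with a core at 2 of 16 peaks. They included rec-8, coh-4, the synaptonemal complex gene syp-6 (173 and 440) and zhp-2, a RING finger protein of meiotic recombination (133 and 398). Of 44 germ granule and germline RNA genes, 14 were reached, with a core at 3 of 14 peaks, among them glh-2, the nuclear Argonaute gene hrde-1 (142 and 447), the Argonaute gene wago-4 (78.0 and 192) and ifet-1 (57.4 and 144).

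EFL-1::GFP also lay in front of genes of its own complex. Of 10 DREAM and E2F genes, 3 were reached by a divergent peak and 6 by any promoter peak. The peak at lin-53, the worm RbAp48, had 107 and 425, that at lin-35, the retinoblastoma gene, had 87.7 and 244, and that at lin-54 had 70.1 and 246. Only the last of these 3 held an E2F core. Its summit lay 330 bp upstream of lin-54 but 63 bp upstream of rpl-12 on the other strand. The other summits lay 220 bp from lin-53 and 247 bp from nra-2, and 168 bp from lin-35 and 250 bp from vps-51. Of 44 chromatin and synMuv B genes, 8 were reached by a divergent peak, with a core at 1 of 8 peaks, and the strongest were mes-6, of a Polycomb complex (99.2 and 214), htz-1, the histone variant H2A.Z (92.7 and 223), lin-61 (63.9 and 182) and chaf-2, of the chromatin assembly factor (55.8 and 144).

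Genes of protein synthesis and turnover were also reached, and the peaks of ribosomal protein genes had lower signals and fewer cores than those of the replication and mitosis lists. Of 80 cytoplasmic ribosomal protein genes, 43 were reached by a divergent peak and 67 by any, with a core at 5 of the 40 peaks and a median signal of 80.1, beside a median of 92.4 over all divergent peaks. With only the upper 50% of peaks by signal, 23 of the 43 were reached, and 49 mitosis genes became 45. The summit was a median of 295 bp from the ribosomal protein gene and 224 bp from the gene opposite, and the ribosomal protein gene was the nearer of the pair for 17 of 43. The strongest were rps-12 (95.3 and 262), rpl-20 (82.6 and 259), rpl-12 (70.1 and 246) and rpl-15 (74.5 and 240). Of 33 proteasome genes, 17 were reached, with a core at 6 of 17 peaks and a median signal of 96.6, and the proteasome gene was the nearer for 13. With the upper 50% of peaks 11 were reached. They included rpn-6.1 (171 and 504), pas-6 (172 and 352), rpn-2 (54.9 and 183) and rpn-9 (48.8 and 115). Of the 8 genes of the CCT chaperonin, which folds tubulin and actin, 7 were reached. All of these were reached by divergent peaks and none by a one-strand peak only. A head-to-head partner was present for 6 of the 8 CCT genes and 22 of the 33 proteasome genes, against 18.8% of all coding genes. The median signal of the CCT peaks was 119.4, with a core at 2 of 7 peaks. The strongest were cct-5 (127 and 404), cct-8 (84.9 and 260), cct-1 (41.3 and 133) and cct-6 (44.3 and 76.2), and the CCT gene was the nearer of the pair for 1 of the 7.

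Other lists of genes used by most cells ranged between these. Of 40 nuclear pore and transport genes, 17 were reached by a divergent peak, with a median signal of 173. The counts were 21 of 72 for oxidative phosphorylation, 15 of 52 for splicing, 14 of 66 for mitochondrial ribosomal proteins, 11 of 38 for translation factors, 13 of 53 for RNA polymerase II, TAF and Mediator genes, 21 of 94 for membrane traffic and 6 of 31 for aminoacyl-tRNA synthetases. All of these shares were above the 6.58% of all coding genes, but in these 8 lists 30.9 to 52.8% of the genes had a head-to-head partner, against 18.8% of all coding genes. Genes with such a partner were reached by a promoter peak of any kind in 31.4% of cases and those without one in 8.17%, and the part of gene arrangement in the list counts was not tested. Several of these counts rested on weak peaks. With only the upper 50% of peaks by signal they were 10 for oxidative phosphorylation, 8 for splicing, 6 for mitochondrial ribosomal proteins, 4 for translation factors, 4 for RNA polymerase II, TAF and Mediator genes, 7 for membrane traffic and 1 for aminoacyl-tRNA synthetases. The count for the meiotic chromosome list then was 10 in place of 16, and that for germ granule and germline RNA genes 9 in place of 14.

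Nuclear hormone receptors, the largest list, had 4 of 271 genes reached by a divergent peak (1.48%, beside 6.58% of all coding genes), and 7.01% of them had a head-to-head partner. Other lists were at or near the share of all coding genes, or too small to be set apart from it. Divergent peaks reached 3 of 63 ceh homeobox genes, 1 of 16 tubulin genes, 4 of 59 histone genes and 0 of 23 RAS and MAP kinase genes. A partner was present for 41 of the 59 histone genes.

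Markers of tissues were included to show which cell types the reached genes are known for. Of the markers, 0 of 15 for intestine, 0 of 16 for hypodermis and cuticle, 0 of 16 for muscle, 1 of 20 for neurons and 1 of 19 for sperm were reached by a divergent peak, the last being spe-39, whose peak lay nearer to the embryonic gene spn-4. A head-to-head partner was present for 2, 1, 0, 0 and 4 of these markers in the same order. Promoter peaks of any kind reached 0, 0, 2, 2 and 1 of them. Of all coding genes, 6.58% were reached by a divergent peak and 12.5% by any promoter peak. These 5 lists are too small for their counts to be set apart from those shares. Of 19 germline markers, 6 were reached by a divergent peak and 15 by any, and 6 had a partner.

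**Figure D5:**
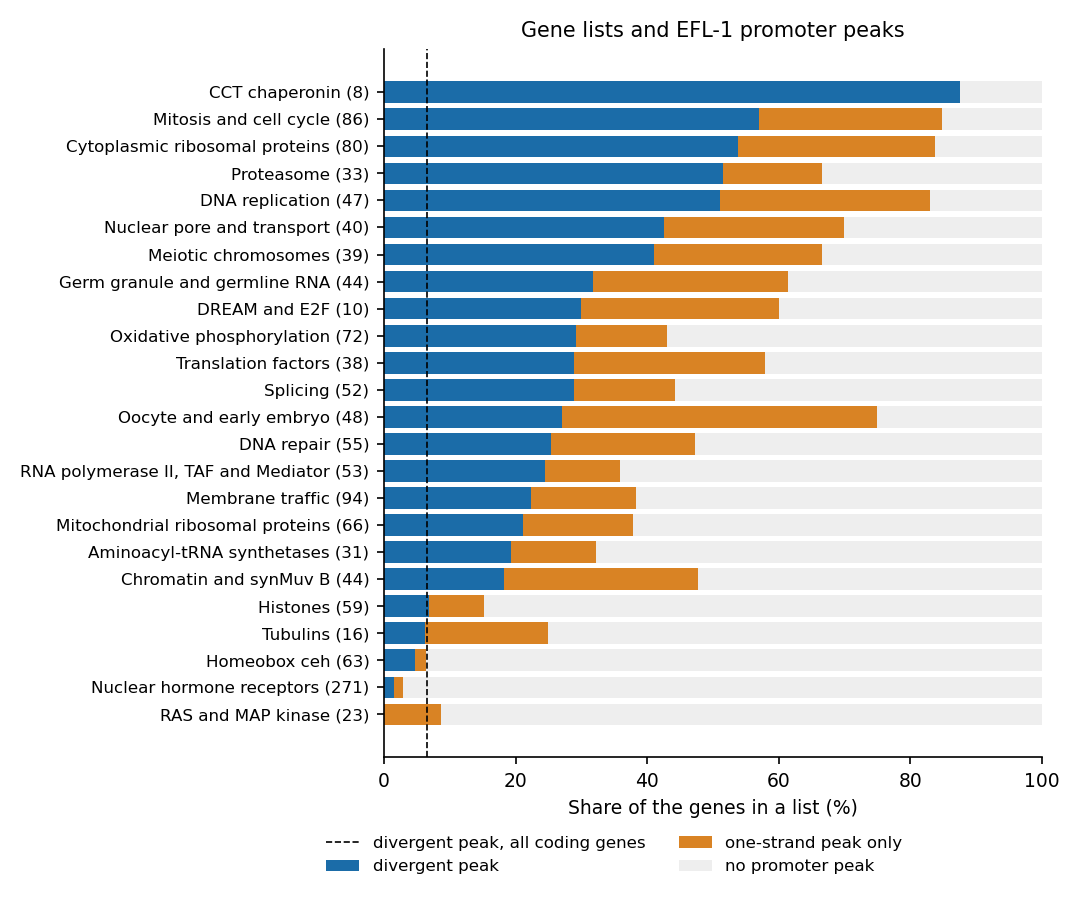
Share of the genes in each list (number of genes in brackets) reached by a divergent peak (blue), by a one-strand peak only (orange) or by no promoter peak (light grey), with a dashed line at the 6.58% of all coding genes reached by a divergent peak. The CCT chaperonin, mitosis, ribosomal protein, proteasome and replication lists have the highest shares reached by a divergent peak.

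At 49 divergent peaks, genes of the lists stood on both strands, and 10 of these pairs shared a list. The strongest of the 49 was npp-3 with top-2, followed by rec-8 with mex-5. Several joined a cell cycle gene to a gene of another process. One summit lay 8 bp inside rab-18, a membrane traffic gene, and 134 bp upstream of kbp-4, with par-2 farther along the same strand. The summit between orc-5, of the origin recognition complex, and cyb-1, a cyclin B (104 in replicate 1 and 259 in replicate 2), held a core, as did that between hpo-18 and mcm-7, of the replicative helicase (87.7 and 263).

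Ribosomal and translation genes stood opposite genes of the DREAM, replication, DNA repair, mitosis or germ granule lists at a further set of peaks. These were rpl-12 with lin-54, eef-1G with ctf-4, a replisome gene (60.9 and 207), rps-22 with polh-1, a translesion DNA polymerase (93.4 and 161), eef-1A.1 with rfc-4, of the clamp loader (71.1 and 183), rps-1 with ifet-1, and rpl-22 with ify-1, the worm securin (36.0 and 124). A core was found at the first 2 of these 6. Further pairs joined bub-1, a spindle checkpoint kinase, to lin-61, mdf-2, the worm MAD2, to nduv-3 (53.7 and 139), polq-1 to him-10, a kinetochore gene (38.5 and 134), polk-1 to gpr-1 (48.98 and 206), bmk-1, a mitotic kinesin, to coh-3, a meiotic cohesin gene (131 and 330), mrps-6 to rpn-8 (37.4 and 118) and rpn-5 to scc-1, a cohesin gene (29.7 and 111).

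Pairs within a list were weaker, apart from rec-8 with mex-5, and were picked out after their values had been seen. They included rps-10 with rpl-24.1 (30.5 and 69.0), the histone genes his-67 and his-68 (31.4 and 66.2), rps-14 with rpl-36 (40.8 and 47.5), the splicing genes rsp-2 and rsp-1 (pooled signal 89.4), pgl-1 with him-3 (32.0 and 48.6) and the mismatch and checkpoint genes msh-2 and hus-1 (16.2 and 28.2). None of these held an E2F core.

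At the limits of the rule, the divergent peaks whose farther gene was most distant lay 1000 bp upstream of T10E9.8 (pooled signal 234), 1000 bp upstream of haps-1 (49.7) and 996 bp upstream of C02F5.10 (270). Their nearer genes were T10E9.2 (54 bp), smg-1 (464 bp) and knl-1 (155 bp). The nearest peaks outside it were 1005 bp upstream of vnut-1 (146), 1007 bp upstream of uad-2 (128) and 1016 bp upstream of sec-31 (514). These were one-strand peaks, 109 bp upstream of usp-14, 278 bp upstream of cdc-25.1 and 183 bp upstream of cbd-1. On the downstream side the last peaks inside lay 199 bp into Y32H12A.8 (51.3), 196 bp into EEED8.3 (68.0) and 189 bp into rla-2 (35.4). The nearest outside lay 202 bp into Y43F8C.13 (60.5), 282 bp into nst-1 (35.1) and 287 bp into ctps-1 (164). Signals on the outer and inner side of each limit overlapped.

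The largest disagreements between replicates were at weak peaks. The summit between meg-3 and Y40A1A.2 ranked 26998 in replicate 1 and 2197 in replicate 2, with signals of 3.96 and 29.4. Those of rpl-1 with Y71F9AL.9 (4.08 and 41.5) and grld-1 with cox-6C (4.25 and 30.4) differed in the same direction. In the other direction, F54A3.6 with cct-3 ranked 1603 and 7288, with signals of 16.4 and 11.03, followed by nars-1 with nduf-6 (24.7 and 12.1) and cpf-1 with rpl-26 (24.5 and 13.1). Over all 657 peaks the better rank fell to replicate 2 in 328 and to replicate 1 in 326.

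None of the genes that contributed sequence to the transgene was reached by a divergent peak. The pie-1 gene had a strong one-strand peak 125 bp upstream, with signals of 461 in replicate 1 and 851 in replicate 2, and the transgene carries the pie-1 promoter too, whose part in this signal was not tested. The unc-119 gene had a weak one-strand peak with a pooled signal of 38.4, which overlapped no region of replicate 1, and efl-1 had no promoter peak.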

How the data were processed

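ChIP-seq peak lists of 2 biological replicates were used in build ce11. Per the description deposited with the samples, the authors called a relaxed list of 30000 regions for each replicate and a pooled list against a control, and kept an optimal list that passed an irreproducible discovery rate threshold. The deposited signal value of each region has no stated scale and served to rank and describe regions. The deposited −log10 q-value was read but not tested. The aligner, the peak caller, the threshold and the depth were not given in the sources used here, so no interval rests on depth. The ce10 lists were not used here.

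Summits were assigned to 5′ ends of protein-coding genes of Ensembl release 115 (WBcel235), bases came from the RefSeq copy, and annotated 5′ ends in the worm can be trans-splice sites. Top regions were the 2498 of highest signal in each replicate, matched by an overlap of at least 1 bp. Motifs were searched in 101 bp around the summit. Shares have 95% Wilson intervals, which cover the sampling of peaks. The 4 differences were tested at an adjusted p of 0.05 with Python 3.11.15, pandas 2.3.3, numpy 2.4.6 and scipy 1.17.1, and the scripts were tested on simulated data. Of 1490 names in 30 gene lists, 1477 matched. Named genes were those of the 15 strongest divergent peaks, up to 4 per list by signal, the 20 strongest peaks with list genes on both strands, the peaks at each limit of the rule, the largest rank differences and the genes of the transgene. The members and the lists were chosen with earlier results of these data known.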

Additional observations from a re-analysis of the deposited data

How the results depend on the processing

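The 2498 top regions of replicate 1 or of replicate 2 were also used in place of the pooled peaks, so each list was as long as the optimal list. They gave 639 to 644 divergent peaks, 1245 to 1265 genes and 29.01 to 29.8% of head-to-head pairs. Over the same pair of lists the difference between divergent and one-strand peaks ranged from 8.48 to 9.23 points for the signal, from 7.06 to 10.9 for the top regions, from -5.43 to -3.90 for the E2F core and from -1.19 to 1.44 for TTNGAA. For the signal, the median was taken anew over the promoter peaks of each list. For the top regions, the share was that of peaks overlapping the top regions of the other replicate. The negative TTNGAA value and the core difference of -5.43, which passed, came from the list of replicate 1. With a window of 500 bp the core difference was -6.01 points and passed (adjusted p = 0.0413, Fisher's exact test), and the signal difference of 4.13 points no longer did. Motifs sought within 100 bp gave -5.35 points for the core and 6.11 for TTNGAA, both of which passed. The upper 50% of the optimal peaks left 410 divergent peaks, 823 genes, 216 list genes against 338 with all peaks, and 19.4% of head-to-head pairs, with differences of 6.44 points for the signal, 1.58 for the top regions and -1.71 for TTNGAA, none of which passed. With only peaks found in both sets of top regions, the signal difference of 5.33 points did not pass, TTNGAA was at -0.232 points and 25.6% of head-to-head pairs were bound. Within strata, the core difference was -10.9 points at or below the median signal, and the signal difference was 2.53 points without a core. For summits within 250 bp of a 5′ end, a setting chosen after seeing the data, the signal and top-region differences of 0.840 and 4.96 points did not pass. The causes were not tested. Among the comparisons that carry the report, 59 outcomes under other settings stayed the same. A further 7 no longer passed, 5 newly passed, 3 reversed direction and 5 moved a count or share. Differences stayed the same if direction and call held, counts if within 1.5 times, and head-to-head shares if inside the main 95% interval. The 59 include differences that passed in neither setting, such as that of the core on chromosome X with 7 divergent peaks. No paired analysis was possible because there was 1 group of samples. Sequencing depth is unknown, and annotated 5′ ends decide which peaks count as divergent: 650 of the 668 were also divergent with RefSeq gene models.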
